A study of Mus musculus with 24 samples.

Results

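The osteoblast lineage transcription factors described here are *Runx2*, *Sp7*, *Dlx3*, *Dlx5*, *Dlx6*, *Msx1*, *Msx2* and *Twist1*. They were taken by gene symbol from the 55335 genes counted in each library, and all 8 members were present in all 24 libraries and among the 20287 genes that passed the filter on low counts. The libraries came from bulk RNASeq of cultured primary parietal osteoblasts (OBs), the cells that build the flat bones of the skull roof. Cultures were WT or Het, where Het cells carry 1 copy of the G610C mutation of *Col1a2* (a glycine of the α2 chain of collagen I replaced by cysteine), and RNA was taken on day 8, 14 or 21 of culture under conditions of osteogenic differentiation. Each genotype and day was represented by 4 libraries. The G610C line was kept on the C57BL/6J background, cells of each genotype were pooled from several pups taken a few days after birth, and all cultures of both genotypes received ascorbic acid 2-phosphate. The spread between libraries is therefore not the spread between animals, and p-values below measure the former. The comparisons ask how these factors changed over the time course and whether their levels differed between Het and WT cultures.

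RUNX2, a runt domain protein, commits mesenchymal cells to the osteoblast lineage, and SP7 (osterix), a zinc finger protein, acts downstream of it and is needed for osteoblasts to mature. DLX3, DLX5 and DLX6 are homeodomain proteins of the distal-less family that promote *Runx2*, *Sp7* and bone matrix genes, while MSX1 and MSX2 are related homeodomain proteins best known for keeping cranial progenitors proliferating. TWIST1, a basic helix-loop-helix protein, marks early mesenchymal cells of the cranial sutures and restrains RUNX2 activity.

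*Dlx3*, *Dlx5*, *Dlx6* and *Msx2* resemble each other in sequence, and the stretch of coding sequence where these 4 homeobox genes are most alike is given here because similar genes can share reads. The window of 180 bases was located by an ungapped search of the longest coding sequence of each gene (GENCODE M21, GRCm38), and capitals mark the 83 positions at which all 4 genes hold the same base.
Dlx3: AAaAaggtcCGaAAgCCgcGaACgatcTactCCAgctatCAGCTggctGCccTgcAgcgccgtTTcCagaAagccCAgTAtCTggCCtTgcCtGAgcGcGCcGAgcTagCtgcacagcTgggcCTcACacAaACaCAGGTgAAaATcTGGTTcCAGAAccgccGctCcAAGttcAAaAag
Dlx5: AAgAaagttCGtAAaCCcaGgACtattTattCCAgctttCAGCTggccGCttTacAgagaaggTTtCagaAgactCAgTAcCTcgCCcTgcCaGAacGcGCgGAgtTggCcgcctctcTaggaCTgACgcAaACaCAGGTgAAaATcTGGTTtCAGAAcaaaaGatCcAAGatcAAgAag
Dlx6: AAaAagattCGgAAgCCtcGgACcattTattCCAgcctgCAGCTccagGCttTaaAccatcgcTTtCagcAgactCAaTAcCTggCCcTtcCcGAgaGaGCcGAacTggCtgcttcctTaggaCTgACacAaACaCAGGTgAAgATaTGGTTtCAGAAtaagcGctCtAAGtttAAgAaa
Msx2: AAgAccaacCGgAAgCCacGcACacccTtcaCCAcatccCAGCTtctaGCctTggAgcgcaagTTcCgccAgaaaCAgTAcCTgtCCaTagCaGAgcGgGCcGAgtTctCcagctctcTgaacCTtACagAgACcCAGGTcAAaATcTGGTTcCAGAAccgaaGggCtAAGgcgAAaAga
The windows lie at chr11:95121761-95123450 on the plus strand for *Dlx3*, at chr6:6878447-6879663 on the minus strand for *Dlx5*, at chr6:6865134-6867082 on the plus strand for *Dlx6* and at chr13:53468376-53468555 on the minus strand for *Msx2*. An intron interrupts the window in the 3 *Dlx* genes and not in *Msx2*. Identity in the window was highest between *Dlx5* and *Dlx6* (73.9%), followed by *Dlx3* and *Dlx5* (72.8%), and was lowest between *Dlx6* and *Msx2* (56.7%). The longest run of identical bases in the window was 23 bases, between *Dlx3* and *Dlx5*. Over whole transcripts, the longest run shared by any pair of the 8 members was 44 bases, between *Dlx6* and *Msx2*. How reads matching several genes were counted is not given in the sources used here.

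RefSeq promoter sequence (GRCm38.p6, 250 bases before to 50 bases after the start site) matched 4 members, *Runx2*, *Msx1*, *Msx2* and *Twist1*. They were searched on both strands for ACCACA, the core recognised by RUNX proteins, and for TAATTA, a core recognised by many homeodomain proteins, since several members are known to act on each other's genes. ACCACA occurs in 16.8% of the 32851 promoters of that length and TAATTA in 5.29%. The *Runx2* promoter held 3 matches to ACCACA and the *Msx2* promoter 1 match to TAATTA. The *Msx1* and *Twist1* windows held neither set of letters. The matches are shown in their 30 bases of context, with the matching letters in capitals.
Runx2, chr17:44814690-44814719, minus strand: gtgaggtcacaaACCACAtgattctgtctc
Runx2, chr17:44814587-44814616, minus strand: gcctcacaaacaACCACAgaACCACAagtg
Msx2, chr13:53472950-53472979, minus strand: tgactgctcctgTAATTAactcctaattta
The first *Runx2* window precedes the RefSeq start site and the second, with a pair of matches, follows it. At least 3 matches to ACCACA were held by 0.183% of the promoters. A match of letters is not evidence of binding.

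In GRCm38, *Runx2* (ENSMUSG00000039153.17) spans chr17:44495987-44814797 on the minus strand and *Sp7* (ENSMUSG00000060284.7) chr15:102356606-102367182 on the minus strand. *Dlx3* (ENSMUSG00000001510.8) spans chr11:95120119-95125296 on the plus strand, 0.17 Mb from *Col1a1*. *Dlx5* (ENSMUSG00000029755.10) at chr6:6877805-6882085 on the minus strand and *Dlx6* (ENSMUSG00000029754.13) at chr6:6863334-6868568 on the plus strand are neighbours, 2.34 and 2.32 Mb from *Col1a2*, the gene that carries the G610C mutation. *Msx1* (ENSMUSG00000048450.10) lies at chr5:37820485-37824583, *Msx2* (ENSMUSG00000021469.9) at chr13:53466884-53473074, both on the minus strand, and *Twist1* (ENSMUSG00000035799.6) at chr12:33957671-33959829 on the plus strand. Exons of *Runx2* share 519 bases with the antisense gene *Runx2os1*, and exons of *Dlx6* share 104 bases with the antisense gene *Dlx6os2*. Whether counting used strand is not given in the sources used here, so reads of these shared bases cannot be assigned to either gene.

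Libraries held between 17140202 and 59734231 counted reads. Following the study's scale, the count of each gene was divided by the geometric mean count of the housekeeping genes *Sdha*, *Mrfap1*, *Actb* and *Actg1* of that library, and the result is given as RQ per 1000, that is, counts per 1000 counts of that mean. The osteoblast label was checked against 7 markers (*Col1a1*, *Col1a2*, *Ibsp*, *Alpl*, *Bglap*, *Bglap2* and *Ifitm5*). Most of their sum comes from *Col1a1* and *Col1a2*, and the study also saw weaker *Col1a1* labelling in fibroblasts. Day 8 means of both genotypes were 32953 (*Col1a1*), 29139 (*Col1a2*), 378 (*Alpl*), 370 (*Ibsp*), 15.8 (*Ifitm5*), 3.97 (*Bglap2*) and 2.11 (*Bglap*). None of them was at 0 in any group, and their summed RQ per 1000 lay between 32100 and 88500 in WT and between 34400 and 70100 in Het at day 8, between 182000 and 330000 in WT and between 169000 and 233000 in Het at day 14, and between 314000 and 340000 in WT and between 202000 and 284000 in Het at day 21, where the genotypes did not overlap. Markers of macrophages and osteoclasts also rose, with 10 of 11 tested higher at day 14 than at day 8, and their summed RQ per 1000 lay between 720 and 792 in WT and between 722 and 1440 in Het at day 8, between 2220 and 4940 in WT and between 3480 and 7860 in Het at day 14, and between 6390 and 7390 in WT and between 8200 and 17600 in Het at day 21. Of all genes tested, 34.3% were higher at day 14 than at day 8. *Calcr*, a marker of mature osteoclasts, was at 0 in every library of both genotypes at day 14 and of Het at day 21. Cartilage markers summed to between 5690 and 35500 at day 8, between 1770 and 26000 at day 14 and between 1610 and 13300 at day 21 over both genotypes. Endothelial markers summed to at most 5.13. Libraries with replicate number 1 stood apart for most members in both genotypes, and their values are therefore given separately beside each result. Het replicate 4 of day 21 also stood apart. By chi-square of the counts per degree of freedom it differed from replicates 2 and 3 by 126.13 and 122.09. Those differed from each other by 5.32, and from replicate 1 by 66.75 and 58.67. Het replicate 4 of day 21 held the lowest *Runx2*, *Sp7* and *Dlx5* and the highest macrophage and osteoclast sum of its group. The study's methods describe an earlier and a later experiment with cells of different litters, which were plated at different densities and expanded in different oxygen. The labels do not give which replicate numbers belong to which experiment.

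On the scale of RQ per 1000 per kb of gene length, which allows levels to be compared between genes, *Msx2* had the highest mean level at day 8 in both genotypes (79.3 in WT and 90.4 in Het). In WT its range at day 8 overlapped that of the next gene, *Sp7*, whereas in Het it was clear of the next gene, *Twist1*. At days 14 and 21 *Sp7* was the highest in both genotypes and clear of the next gene, with means of 209.9 and 195 in WT, against 167 and 153 in Het. *Twist1*, *Dlx3*, *Runx2*, *Dlx5* and *Msx2* followed with overlapping ranges at day 14. *Dlx6* had the lowest mean in every group except Het at day 8, where *Dlx3* was lowest at 1.07 and clear of *Dlx6*.

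**Figure D1:**
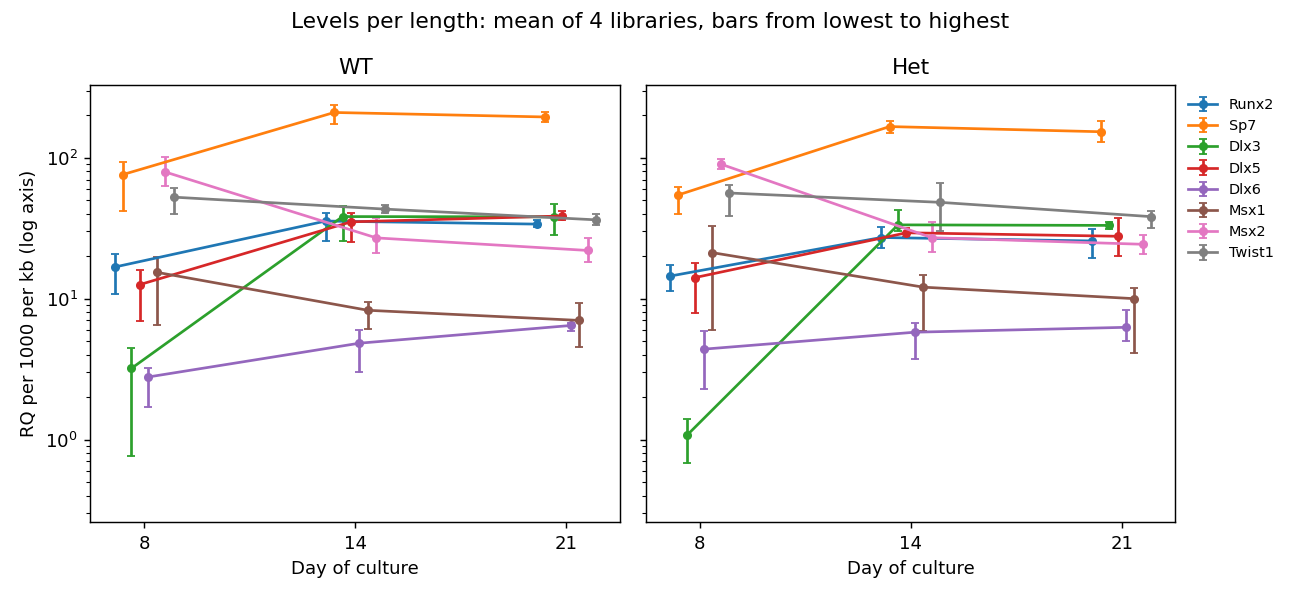
Mean RQ per 1000 per kb of the 8 members (log axis) against day of culture in WT (left) and Het (right), with bars from the lowest to the highest of 4 libraries. *Sp7* is highest at days 14 and 21, *Msx2* falls after day 8, and *Dlx3* climbs from 1.07 in Het at day 8 to the level of *Dlx5*.

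Between days 8 and 14 the 3 *Dlx* genes, *Runx2* and *Sp7* rose and both *Msx* genes fell. *Dlx3* changed by far the most, by 18.7-fold, followed by *Msx2* at 0.319-fold and *Sp7* at a log2 difference of 1.54. Of the 8 members, 7 were called at an adjusted p under 0.05 in edgeR's quasi-likelihood test over both genotypes, 5 higher and 2 lower. Among all genes tested, 47.9% were called in this comparison (34.3% higher and 13.6% lower), and the median log2 difference was 0.8 over the members against 0.12 over all genes tested. In WT alone 6 members were called (30.9% of all genes) and in Het alone 5 (35.6%), the calls of *Dlx6* and *Msx1* being those that differed from the joint test. RNA from a whole culture was measured, so a change in the number of cells that express a gene and a change in RNA per cell cannot be told apart.

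*Runx2* had RQ per 1000 values of 95.9, 184, 165 and 147 in WT replicates 1 to 4 at day 8 and of 228, 359.9, 361 and 308 at day 14. In Het, the corresponding values were 99.7, 154, 131 and 126 at day 8 and 203, 236, 285 and 236 at day 14. Every day 14 library was above every day 8 library, and replicate 1 was the lowest in all 4 of these groups. The log2 difference between days was 1.00 (SE 0.13, adjusted p = 1.36e-06).

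*Sp7* started at 143, 315, 312 and 264 in WT and at 136, 209.8, 211 and 185 in Het at day 8. By day 14 its values were 593, 808, 751 and 701 in WT cultures and 511, 618, 580.3 and 556 in Het. The days did not overlap, and replicate 1 was again the lowest in each group. The log2 difference was 1.54 (SE 0.13, adjusted p = 3.76e-09), with a ratio of means of 3.96 within replicate 1 and of 2.68 within replicates 2 to 4.

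*Dlx3* was low at day 8, with RQ per 1000 of 1.97, 11.2, 11.7 and 8.55 in WT cultures and 1.78, 3.07, 3.64 and 2.71 in Het. These values rest on 23 to 307 counts in WT and on 25 to 99 counts in Het. At day 14 the values were 66.5, 119, 112 and 101 in WT cultures and 80.0, 110.5, 78.9 and 79.2 in Het, so that each library of day 14 was several times above each library of day 8. The fitted log2 difference was 4.22 (SE 0.23, adjusted p = 4.13e-12). Separately, it was 3.53 (SE 0.30) in WT and 4.92 (SE 0.34) in Het.

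*Dlx5*, its homeobox relative, had values of 15.8, 34.3, 36.1 and 27.8 in WT cultures and 17.8, 40.5, 39.0 and 30.5 in Het at day 8. At day 14 these were 56.8, 91.9, 92.1 and 77.1 in WT cultures and 71.4, 65.5, 66.9 and 62.1 in Het. The days did not overlap, and the log2 difference was 1.26 (SE 0.17, adjusted p = 2.17e-06). Replicate 1 was the lowest library of its group except in Het at day 14, where it was the highest.

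*Dlx6*, which is transcribed from the same locus on the opposite strand, had values of 4.03, 7.63, 7.71 and 7.03 in WT cultures and 5.41, 14.1, 12.5 and 9.62 in Het at day 8. At day 14 it reached 7.13, 12.9, 14.2 and 11.7 in WT cultures and 8.84, 15.2, 16.1 and 14.8 in Het. Although the ranges of the days overlapped, day 14 was higher within all 8 pairs of the same genotype and replicate number. The log2 difference was 0.60 (SE 0.19, adjusted p = 0.011), and the call was lost with the trimmed mean of M values (TMM), another scale between libraries (0.46, adjusted p = 0.0681) and with total counts as the scale (0.30, adjusted p = 0.184), and when replicate 3 (0.59, adjusted p = 0.068) or replicate 4 (0.57, adjusted p = 0.0917) was left out.

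*Msx1* declined from 20.1, 60.4, 61.3 and 48.7 in WT cultures and 18.4, 83.6, 101 and 60.1 in Het at day 8 to 18.9, 29.4, 28.9 and 25.3 in WT cultures and 18.2, 39.8, 45.8 and 45.7 in Het at day 14. Replicate 1 was low on both days and hardly changed, with a ratio of day 14 to day 8 means of 0.963 against 0.518 within replicates 2 to 4, where the days did not overlap. The log2 difference over all replicates was −0.85 (SE 0.30, adjusted p = 0.0218). It was no longer called without Het replicate 3 of day 8 (−0.71, adjusted p = 0.0584) or when replicate 2, 3 or 4 was left out (−0.77, −0.73 and −0.92, adjusted p = 0.139, 0.152 and 0.0949).

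*Msx2* went the same way with less spread, from 330.1, 246, 207 and 258 in WT cultures and 319, 272, 292 and 302 in Het at day 8 to 123, 72.4, 69.4 and 89.9 in WT cultures and 114, 70.3, 83.4 and 87.7 in Het at day 14. No library of day 14 reached the lowest of day 8. In contrast to *Msx1*, replicate 1 was the highest library of its group. The log2 difference was −1.65 (SE 0.13, adjusted p = 9.76e-10).

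*Twist1* was not called over this interval, at a log2 difference of −0.25 (SE 0.13, adjusted p = 0.126). Its values were 64.7, 99.6, 95.6 and 82.7 in WT cultures and 63.2, 105, 104 and 94.6 in Het at day 8 against 66.0, 69.0, 75.7 and 71.0 in WT cultures and 48.9, 67.6, 108 and 89.7 in Het at day 14. It was higher at day 14 in 2 of 8 pairs. The decline passed the test with the replicate number as a block in the fit (−0.25, adjusted p = 0.0253), with TMM scaling (−0.39, adjusted p = 0.0384), with total counts as the scale (−0.54, adjusted p = 0.00346) and with DESeq2 (−0.39, adjusted p = 0.0256). It also passed without Het replicate 1 of day 8 (−0.32, adjusted p = 0.0366) or without Het replicate 3 of day 14 (−0.35, adjusted p = 0.0269). The direction of all 8 members between days 8 and 14 was the same under each of these scalings.

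**Figure D2:**
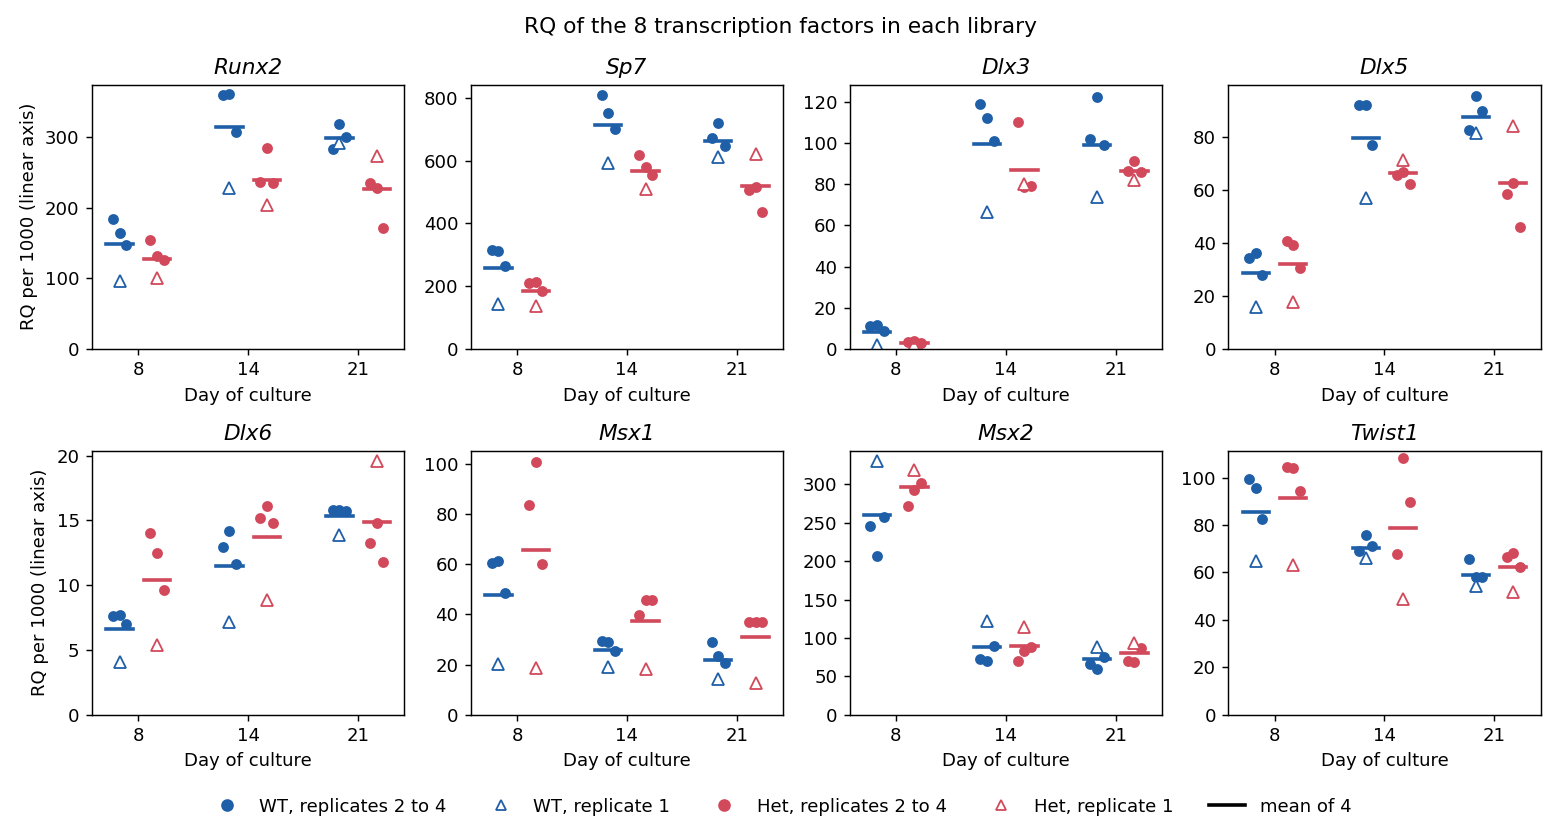
RQ per 1000 of each member in all 24 libraries (linear axis starting at 0) against day of culture, WT in blue and Het in red, with replicate 1 as open triangles, replicates 2 to 4 as circles and the mean of 4 libraries as a bar. *Dlx3* goes from at most 11.7 at day 8 to at least 66.5 at day 14, *Msx2* goes down from at least 206.9 to at most 123, and replicate 1 lies at the low end for *Msx1* in every group.

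From day 14 to day 21 the differences were small. None of the 8 members was called by edgeR, against 18.2% of all genes tested, and 1 of 8 (*Twist1*) had an unadjusted p under 0.05 (log2 difference −0.30, SE 0.13, adjusted p = 0.13). The other differences lay between −0.25 for *Msx1* and 0.26 for *Dlx6*, and their median over the 8 members was −0.1 against 0.06 over all genes tested. With the replicate block, *Msx2* (−0.21, adjusted p = 0.0158) and *Twist1* (−0.29, adjusted p = 0.0249) were called lower at day 21, while DESeq2 called none. *Twist1* was also called without Het replicate 1 of day 14 (−0.38, adjusted p = 0.0237). Of 28 omissions of a replicate or a library, 26 left *Twist1* uncalled and 27 left *Sp7* uncalled. The log2 difference of *Sp7* lay between −0.21 and −0.06 in them.

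The day 21 values show where the groups stood. *Runx2* was at 292, 284, 319 and 300.5 in WT cultures and 274, 235, 228 and 171 in Het, the only member without overlap between the genotypes on this day. By edgeR it was not called at day 21 alone (log2 difference −0.4, SE 0.18, adjusted p = 0.28). The share of all genes without overlap was not counted. *Sp7* was at 611, 671, 721 and 647 in WT cultures and 623, 506, 515 and 438 in Het, where replicate 1 of Het was above replicate 1 of WT.

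For *Dlx3*, day 21 libraries gave 73.8, 102, 122 and 99.4 in WT cultures and 82.0, 86.5, 91.3 and 85.8 in Het, with the Het values inside the WT range. *Dlx5* was at 81.6, 82.7, 95.6 and 89.8 in WT cultures and 84.2, 58.4, 62.6 and 45.8 in Het, and *Dlx6* at 13.9, 15.8, 15.8 and 15.7 in WT cultures and 19.6, 13.3, 14.8 and 11.8 in Het. Het replicate 1 had the highest *Dlx5* and *Dlx6* of its group, while WT replicate 1 had the lowest. Within replicate 1, the ratio of day 21 to day 14 means was 1.31 for *Runx2*, 1.29 for *Dlx5* and 2.1 for *Dlx6*, whereas within replicates 2 to 4 it was 0.861, 0.955 and 1.03.

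For *Msx1*, day 21 libraries gave 14.1, 28.9, 23.2 and 20.6 in WT cultures and 12.8, 37.0, 37.0 and 37.1 in Het. The 3 upper Het libraries exceeded all 4 of WT, and replicate 1 of Het fell below all of them. *Msx2* was at 88.4, 65.4, 59.9 and 75.0 in WT cultures and 93.0, 70.4, 68.3 and 87.4 in Het, with replicate 1 the highest of each group, and *Twist1* was at 54.5, 65.5, 58.1 and 58.2 in WT cultures and 51.9, 66.6, 68.2 and 62.2 in Het, with replicate 1 the lowest of each group.

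**Figure D3:**
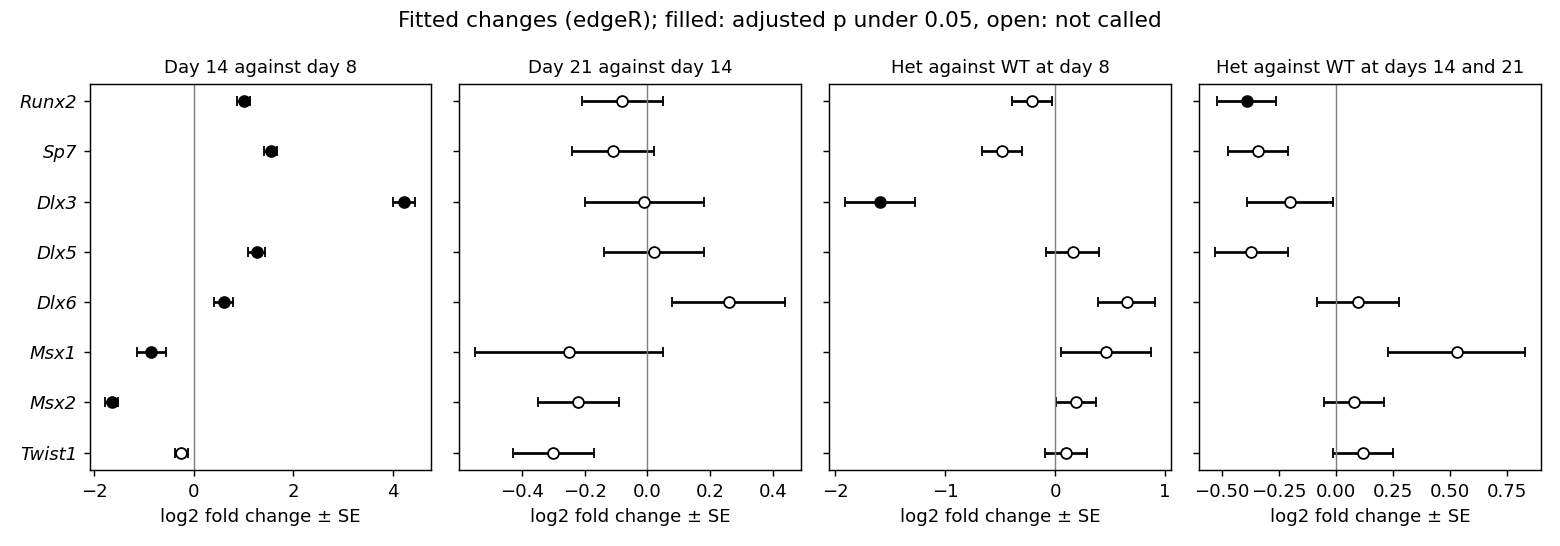
Log2 fold changes of the 8 members with their standard errors in 4 comparisons of the edgeR fit, each panel with its own horizontal axis, filled where the adjusted p was under 0.05. Filled points are 7 of 8 for day 14 against day 8, 0 of 8 for day 21 against day 14, *Dlx3* alone for Het against WT at day 8 and *Runx2* alone for days 14 and 21.

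*Runx2* was lower in Het than in WT cultures at days 14 and 21. Het libraries averaged 234 ± 36.0 RQ per 1000 and WT libraries 307 ± 42.9 (SD, 8 libraries each), a log2 difference of −0.39 (SE 0.13, adjusted p = 0.0409), with Het lower in 8 of 8 pairs of the same day and replicate number. It was the only member of 8 called, against 15.3% of all genes tested (7.22% higher and 8.05% lower). The median log2 difference was −0.06 over the members and −0.05 over all genes tested. The call is close to its threshold and was lost with TMM scaling (−0.35, adjusted p = 0.0864), with total counts (−0.31, adjusted p = 0.101), with DESeq2 (−0.35, adjusted p = 0.0608) and when any of replicates 2, 3 and 4 was left out (adjusted p = 0.211, 0.177 and 0.363). Of 28 omissions of a replicate or a library, 10 kept the call, and the log2 difference lay between −0.48 and −0.34 in all of them. At days 14 and 21, the call outlasted the omission of WT replicate 1 of day 14, Het replicate 3 of day 14 or Het replicate 1 of day 21, and was lost without any other single library of these days.

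*Sp7* had 543 ± 63.0 in Het and 688 ± 72.5 in WT, a log2 difference of −0.34 (SE 0.13, adjusted p = 0.0758), lower in Het in 7 of 8 pairs. With the replicate block the difference was −0.33 (adjusted p = 0.0323). It was also called without WT replicate 1 of day 8 (−0.34, adjusted p = 0.0157) or without Het replicate 1 of day 21 (−0.39, adjusted p = 0.04). *Dlx5* had 64.6 ± 10.95 in Het and 83.4 ± 12.5 in WT, a log2 difference of −0.37 (SE 0.16, adjusted p = 0.129). *Msx1* was the member with the largest positive value, 34.2 ± 12.2 in Het and 23.7 ± 5.53 in WT, a log2 difference of 0.53 (SE 0.30, adjusted p = 0.239), which passed with the replicate block (0.48, adjusted p = 0.0191). The differences were −0.20 for *Dlx3* (adjusted p = 0.52), 0.10 for *Dlx6* (adjusted p = 0.772), 0.08 for *Msx2* (adjusted p = 0.757) and 0.12 for *Twist1* (adjusted p = 0.59). The exact permutation test of mean RQ, two-sided over the 8 and 8 libraries and ignoring the day, gave p = 0.0028 for *Runx2*, 0.00109 for *Sp7*, 0.00824 for *Dlx5*, 0.0463 for *Msx1* and 0.132 for *Dlx3*. These are not adjusted for the number of genes tested.

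The values of replicate 1 stood apart in this comparison. Within replicates 2 to 4, the 6 Het and 6 WT libraries of days 14 and 21 did not overlap for *Sp7*, *Dlx5* and *Msx1*. The share of all genes without such overlap was not counted, so whether this is particular to these members is not known. The ratio of Het to WT means in these libraries was 0.72 for *Runx2*, 0.747 for *Sp7*, 0.683 for *Dlx5* and 1.55 for *Msx1*. Within replicate 1 the same ratios were 0.917, 0.942, 1.12 and 0.94. Without replicate 1, 5 of 8 members were called, namely *Runx2*, *Sp7* (−0.42, adjusted p = 3.2e-05), *Dlx3* (−0.30, adjusted p = 0.00987), *Dlx5* (−0.55, adjusted p = 7.4e-05) and *Msx1* (0.63, adjusted p = 0.000196), against 41.8% of all genes tested (8228 genes). Replicate 1 was singled out, here and below, after its values had been seen, so calls without it are no independent support. Cells were pooled by genotype, so the p-values of these calls measure only the spread between libraries of pooled cells. A test of the difference itself was also chosen because these values had been seen, so that its p-values are no independent support for it. In a fit with a separate term for replicate 1 at each day, the Het effect over all days was higher in replicate 1 than in replicates 2 to 4 by 0.38 for *Sp7* (SE 0.10, adjusted p = 0.0256), by 0.61 for *Dlx3* (SE 0.18, adjusted p = 0.0404) and by 0.54 for *Dlx5* (SE 0.16, adjusted p = 0.0433), and lower by 0.70 for *Msx1* (SE 0.19, adjusted p = 0.0276). These 4 of 8 members stand against 9.05% of all genes tested, and *Runx2* was not called (0.34, SE 0.13, adjusted p = 0.121). At days 14 and 21 alone, *Dlx5* was called (0.74, SE 0.17, adjusted p = 0.012), 1 of 8 members against 10.3% of all genes tested. Replicate 1 has 1 library in each group, which this fit assumes to vary like the others.

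Markers of other cell types moved with genotype at the same time. Of the macrophage and osteoclast markers, 7 of 11 tested were higher in Het at days 14 and 21, against 7.22% of all genes tested. Their median log2 difference was 0.92. Without replicate 1, edgeR called 8 higher and 1 lower, against 41.8% of all genes tested. At day 8 the osteoclast genes *Acp5* (0.21), *Ctsk* (−0.11) and *Ocstamp* (−0.07) were not called (adjusted p = 0.746, 0.9 and 0.999). The summed RQ per 1000 of the 12 markers listed was higher in every Het than in every WT library of replicates 2 to 4 on each day. In replicate 1 the sums were 722 in Het and 792 in WT at day 8, 3480 and 4940 at day 14 and 8200 and 6580 at day 21. The summed RQ per 1000 of 6 cartilage markers, none of them at 0 in any group, was lower in every Het than in every WT library of replicates 2 to 4 on each day. At day 8 it lay between 5690 and 17300 in Het and between 21200 and 26300 in WT, at day 14 between 1770 and 2850 in Het and between 7680 and 14800 in WT, and at day 21 between 1610 and 2310 in Het and between 6380 and 9290 in WT. In replicate 1 the sums were close, at 34300 in Het and 35500 in WT at day 8, 26000 and 24200 at day 14 and 13300 and 12700 at day 21. Over all libraries, 0 of the 6 cartilage markers were called between genotypes at day 8 or at days 14 and 21 by edgeR (0 with an unadjusted p under 0.05) or by DESeq2, whereas without replicate 1 edgeR called 6 of 6 lower in Het in both comparisons.

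The osteoblast marker sum was also lower in every Het than in every WT library of replicates 2 to 4, at day 14 (195000 to 233000 against 275000 to 330000) and at day 21 (202000 to 267000 against 317000 to 340000), with replicate 1 at 169000 in Het and 182000 in WT and at 284000 and 314000. Without replicate 1, edgeR called 7 of the 7 markers lower in Het at days 14 and 21, against 41.8% of all genes tested. Over all libraries 2 of the 7 were called lower, both of them osteocalcin genes. At an unadjusted p under 0.05 in edgeR, 6 of the 7 were lower. Among the other lists, 1 of 6 smooth muscle, 1 of 3 fibroblast and 1 of 4 endothelial markers tested were higher in Het at days 14 and 21. The part of these markers in the differences of the 8 members was not tested. Most of the osteoblast marker sum came from *Col1a1* and *Col1a2*. *Col1a2* itself had a log2 difference of −0.41 (SE 0.18, adjusted p = 0.126) and *Col1a1* of −0.39 (SE 0.18, adjusted p = 0.159).

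**Figure D4:**
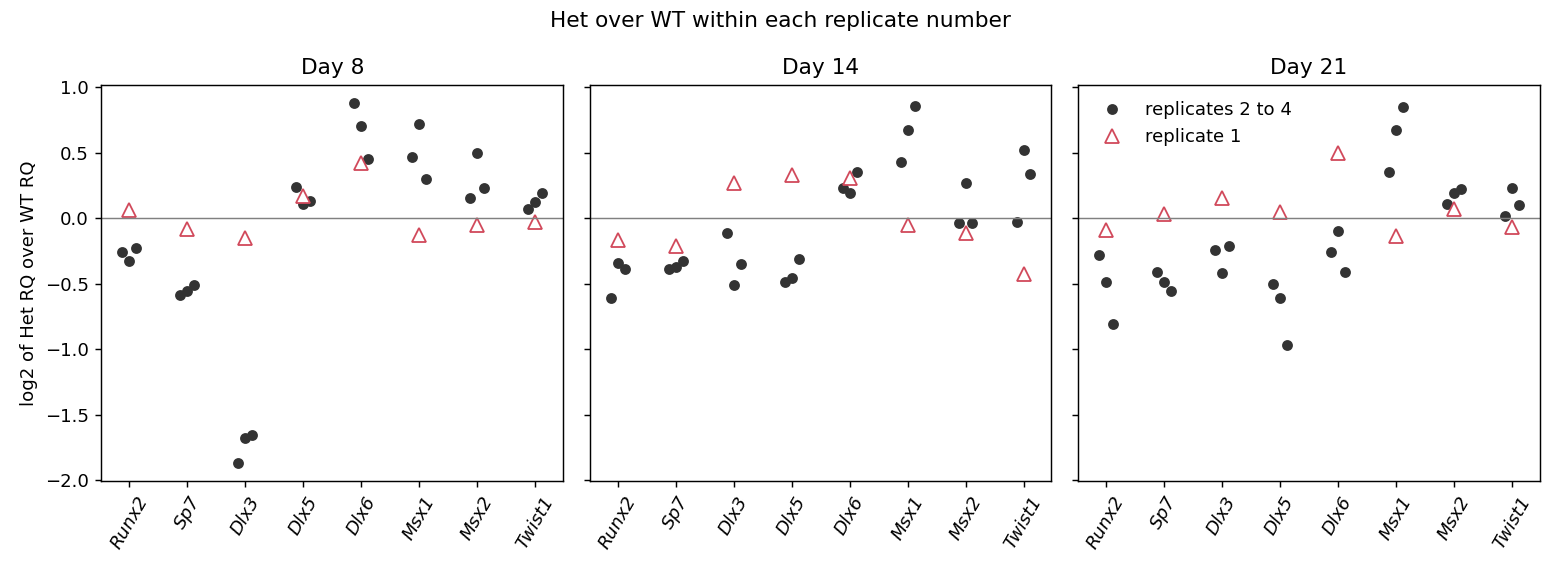
Log2 of Het RQ over WT RQ for each member in pairs of libraries with the same replicate number, at days 8, 14 and 21, with replicate 1 as open triangles and replicates 2 to 4 as filled circles. At day 8 the *Dlx3* circles lie between −1.87 and −1.66 and the triangle at −0.15, and at days 14 and 21 the circles of *Runx2*, *Sp7* and *Dlx5* lie below 0 and those of *Msx1* above it.

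At day 8, *Dlx3* was the member that differed between genotypes. Its mean RQ per 1000 was 2.8 ± 0.78 in Het and 8.35 ± 4.47 in WT (n = 4 each), a log2 difference of −1.59 (SE 0.32, adjusted p = 0.0271). Het was lower in 4 of 4 pairs. The ranges met only through WT replicate 1, at 1.97, since the other 3 WT libraries lay between 8.55 and 11.7 and the highest Het library at 3.64. *Dlx3* was 1 of 8 members called, against 0.641% of all genes tested (0.325% higher and 0.315% lower). The difference was also called with TMM scaling (−1.50, adjusted p = 0.0476), total counts (−1.49, adjusted p = 0.0427), DESeq2 (−1.48, adjusted p = 0.00269) and the replicate block (−1.57, adjusted p = 0.005). It was not called when replicate 2, 3 or 4 was left out (adjusted p = 0.735, 0.81 and 0.456), although the log2 difference stayed between −1.56 and −1.47, nor when any of the 6 libraries of these replicates at day 8 was left out (adjusted p between 0.0767 and 0.143). The two-sided exact permutation test of mean RQ gave p = 0.114, where 4 against 4 libraries cannot go below 0.0286. The ratio of Het to WT was 0.902 within replicate 1 and 0.3 within replicates 2 to 4, and the test of that difference at day 8 was not passed (1.59, SE 0.57, adjusted p = 0.415). By that test 0 of 8 members and 0.0197% of all genes were called at day 8 in edgeR, with an unadjusted p under 0.05 for 2 members, *Sp7* and *Dlx3*.

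*Sp7* was lower in Het in 4 of 4 pairs at day 8, at a log2 difference of −0.48 (SE 0.18, adjusted p = 0.314), and *Dlx6* was higher in 4 of 4 pairs, at 0.65 (SE 0.26, adjusted p = 0.365). Without replicate 1 both were called, *Sp7* at −0.56 (adjusted p = 0.000362) and *Dlx6* at 0.69 (adjusted p = 0.00115), as was *Msx1* at 0.52 (adjusted p = 0.0226), so that with *Dlx3* 4 of 8 members were called, against 17.3% of all genes tested. Leaving out WT replicate 1 of day 8 alone was enough for *Sp7* (−0.68, adjusted p = 0.0156), and leaving out Het replicate 1 of day 8 alone for *Dlx6* (0.86, adjusted p = 0.0452). The remaining differences at day 8 were −0.21 for *Runx2*, 0.16 for *Dlx5*, 0.19 for *Msx2* and 0.10 for *Twist1*, with adjusted p of 0.774, 0.906, 0.802 and 0.944.

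Whether the Het effect changed with time was tested as the difference between the effect at days 14 and 21 and that at day 8. None of the 8 members was called by edgeR, against 0.177% of all genes tested, and *Dlx3* was the 1 member with an unadjusted p under 0.05 (log2 difference of effects 1.39, SE 0.37, adjusted p = 0.281). With the replicate block *Dlx3* passed (1.40, adjusted p = 0.036). It also passed without WT replicate 1 of day 8 (1.66, adjusted p = 0.00233). Without replicate 1, *Dlx3* (1.43, adjusted p = 0.000367), *Dlx5* (−0.72, adjusted p = 0.0111) and *Dlx6* (−0.69, adjusted p = 0.012) passed, against 4.72% of all genes tested. DESeq2 on all libraries called none.

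Ratios between members within a library do not depend on the scale between libraries, and they are given per kb as a description without a test. The ratio of *Dlx5* to *Dlx6* at day 8 was 4.11, 4.72, 4.91 and 4.15 in WT replicates 1 to 4 and 3.45, 3.02, 3.28 and 3.33 in Het. At day 21 it was 6.16, 5.48, 6.35 and 5.99 in WT cultures and 4.51, 4.62, 4.45 and 4.06 in Het. The ratio was lower in every Het library than in every WT library on both days, replicate 1 included. The share of other gene pairs without such overlap was not counted, so whether this is particular to *Dlx5* and *Dlx6* is not known. At day 14 it was 8.37, 7.45, 6.83 and 6.94 in WT cultures and 8.48, 4.52, 4.36 and 4.4 in Het, where replicate 1 of Het was the highest of all. At day 8 the lower ratio went with higher *Dlx6* in Het, and at day 21 in replicates 2 to 4 with lower *Dlx5*. Part of the *Dlx6* count can come from *Dlx6os2*, with which it shares exonic bases.

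The ratio of *Dlx3* to *Dlx5* at day 8 was 0.11, 0.28, 0.28 and 0.27 in WT cultures and 0.09, 0.07, 0.08 and 0.08 in Het, and it lay between 0.79 and 1.63 in every library of days 14 and 21. The ratio of *Msx2* to *Msx1* set replicate 1 apart. At day 8 it was 15.5, 3.84, 3.19 and 5.0 in WT cultures and 16.4, 3.07, 2.74 and 4.74 in Het, and at day 21 5.93, 2.14, 2.44 and 3.44 in WT cultures and 6.88, 1.8, 1.74 and 2.22 in Het. In both genotypes and on every day, replicate 1 had the highest ratio. The ratio of *Sp7* to *Runx2* was steadier, between 3.53 and 4.91 at day 8 and between 5.3 and 6.8 at days 14 and 21 over all libraries.

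**Figure D5:**
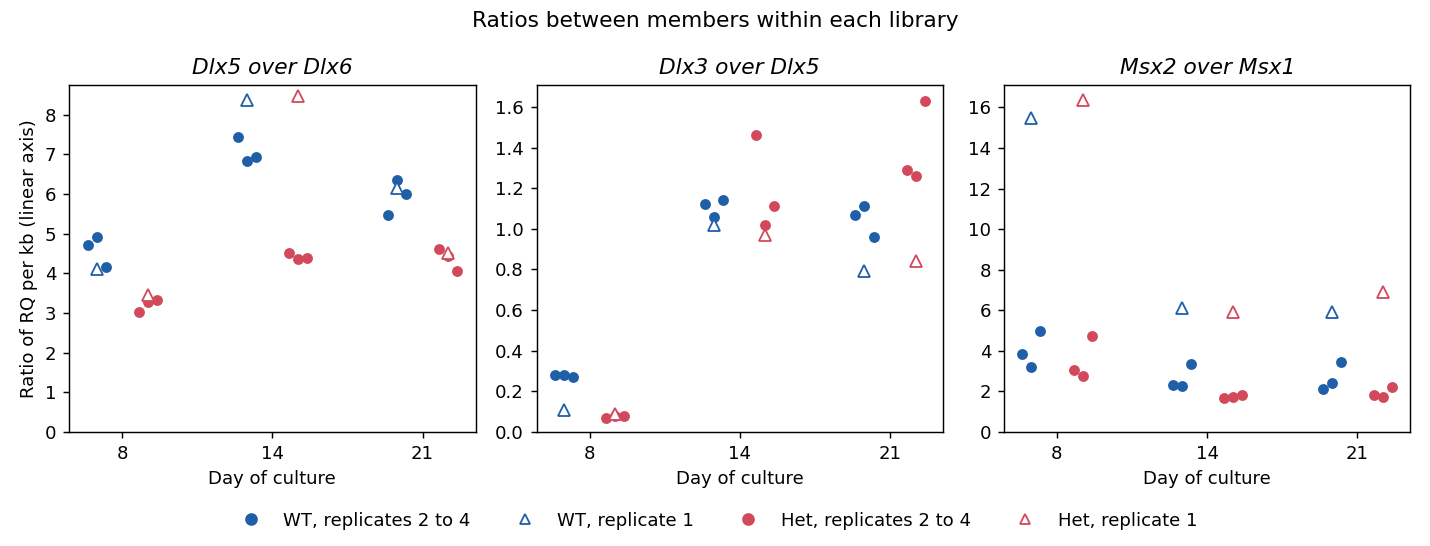
Ratio of RQ per kb (linear axis starting at 0) of *Dlx5* to *Dlx6*, *Dlx3* to *Dlx5* and *Msx2* to *Msx1* in each library against day of culture, WT in blue, Het in red, replicate 1 as open triangles. *Dlx5* over *Dlx6* is at most 3.45 in Het and at least 4.11 in WT at day 8, and *Msx2* over *Msx1* reaches 15.5 and 16.4 in replicate 1 at day 8.

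Genes that work with or under these factors were counted from lists. The counts below are to be read against the shares of all genes tested, 34.3% higher and 13.6% lower between days 8 and 14, 7.22% higher and 8.05% lower in Het at days 14 and 21 (15.3% in all) and 0.641% called at day 8. Calls between genotypes are also given by how many of 28 omissions of a replicate or library kept them. Of 20 osteoblast genes known to be controlled by RUNX2, SP7 or DLX proteins, 18 rose from day 8 to day 14 and none fell, with a median log2 difference of 2.88. Among them *Sost* (10.02, SE 0.61, adjusted p = 2.77e-11) and *Mepe* (8.66, SE 1.0, adjusted p = 2.88e-07), genes of osteocytes, and the osteocalcin genes *Bglap* (7.09, SE 0.49, adjusted p = 1.72e-10) and *Bglap2* (6.35, SE 0.45, adjusted p = 2.42e-10) changed the most. In Het at days 14 and 21, 3 of these 20 genes were lower and 1 was higher, a share near the 15.3% of all genes. Without replicate 1, edgeR called 17 lower and 2 higher, against 41.8% of all genes tested. Over all libraries, 12 of the 20 were lower and 1 was higher at an unadjusted p under 0.05 in edgeR. Their median log2 difference was −0.42, against −0.05 over all genes tested. *Bglap* had a log2 difference of −1.54 (SE 0.36, adjusted p = 0.00797) and *Col11a2*, a cartilage and bone collagen, of −0.87 (SE 0.21, adjusted p = 0.00881), and 26 and 25 of 28 omissions kept these calls. *Bglap2* was at −1.10 (SE 0.35, adjusted p = 0.0365, kept in 15 of 28). *Pdpn*, a marker of early osteocytes, was at 0.34 (SE 0.11, adjusted p = 0.0473), a call kept in only 5 of 28 omissions. At day 8, 4 of 20 were lower in Het, the mineralisation genes *Dmp1* (−2.42, SE 0.40, adjusted p = 0.00845), *Ifitm5* (−1.99, SE 0.28, adjusted p = 0.00186) and *Smpd3* (−1.84, SE 0.24, adjusted p = 0.00129) and again *Col11a2* (−1.40, SE 0.30, adjusted p = 0.0312). These calls were kept in 22, 25, 25 and 19 of 28 omissions.

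Of 22 partners and co-regulators of RUNX2, 13 rose and 4 fell between days 8 and 14. *Klf4* rose by 2.85 (SE 0.16), *Hey1* by 2.20 (SE 0.15) and *Zbtb16* by 3.29 (SE 0.33) on the log2 scale. In Het at days 14 and 21, 3 were lower, *Foxo1* (−0.66, adjusted p = 0.00402), *Hey1* (−0.58, adjusted p = 0.00986) and *Hdac5* (−0.20, adjusted p = 0.0346), and *Junb* was higher (0.40, adjusted p = 0.0171). These 4 of 22 lie near the 15.3% of all genes, and the calls were kept in 25, 25, 16 and 25 of 28 omissions. At day 8, 0 of 22 partners were called between genotypes by edgeR or DESeq2, with an unadjusted p under 0.05 in edgeR for 2.

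Among 13 tested homeobox relatives of *Dlx* and *Msx*, none rose and 4 fell between days 8 and 14, among them *Dlx2* (−0.75, SE 0.11), *Six2* (−0.56, SE 0.09) and *Alx4* (−0.17, SE 0.05). In Het at days 14 and 21, 1 was higher and 2 were lower, the latter being *Alx1* (−0.37, adjusted p = 0.0279) and *Six2* (−0.35, adjusted p = 0.011), kept in 19 and 25 of 28 omissions. Of 10 tested basic helix-loop-helix and Id genes related to *Twist1*, 3 rose and 2 fell between days 8 and 14. In Het at days 14 and 21, 2 were lower, *Id4* (−0.71, adjusted p = 0.0336) and *Id1* (−0.46, adjusted p = 0.0207), both encoding inhibitors of such proteins, and 17 and 24 of 28 omissions kept these calls.

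Of 23 genes of the hedgehog, WNT, BMP and FGF signals upstream of the factors, 12 rose and 3 fell between days 8 and 14. The ligand *Ihh* rose by 3.46 (SE 0.32), the hedgehog target *Gli1* by 2.68 (SE 0.18), *Bmp2* by 2.46 (SE 0.19) and the WNT effector *Tcf7* by 2.16 (SE 0.18). In Het, 7 of 23 were lower and none higher at days 14 and 21, including *Lef1* (−0.93, adjusted p = 0.0337), the BMP antagonist *Nog* (−0.67, adjusted p = 0.0119), the hedgehog receptor *Ptch1* (−0.65, adjusted p = 0.0158) and the WNT co-receptor *Lrp5* (−0.52, adjusted p = 0.0191). The call of *Lef1* was kept in 14 of 28 omissions and each of the others in 25. At day 8, *Gli1* (−1.80, SE 0.26, adjusted p = 0.00203) and *Tcf7* (−1.11, SE 0.26, adjusted p = 0.0485) were called lower, 2 of 23 against 0.315% of all genes, and the calls were kept in 25 of 28 omissions for *Gli1* and in 6 for *Tcf7*.

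Of 15 tested neighbours of the members on their chromosomes, 3 were called between genotypes at days 14 and 21, a share near the 15.3% of all genes tested. *Asns*, asparagine synthetase, and *Slc25a13*, a mitochondrial carrier, both near *Dlx5* and *Dlx6* on chromosome 6, were higher (0.67, SE 0.14, adjusted p = 0.00492) and lower (−0.51, SE 0.10, adjusted p = 0.00324) in Het. *Hdac9*, a histone deacetylase near *Twist1*, was lower (−0.52, SE 0.13, adjusted p = 0.0124). *Dlx6os1* and *Dlx6os2* were not called, at −0.09 (adjusted p = 0.814) and 0.12 (adjusted p = 0.752).

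The genes whose profile over the 24 libraries was most like that of a member were found among 14890 genes by the root mean square difference of centred log2 RQ, as a description. For *Runx2* these were *Rflnb* (0.12), *Pcdh18* (0.15) and *Pard6g* (0.17), where the profile of *Runx2* itself had a root mean square of 0.55. *Sp7* was closest to *Robo2* (0.18), *Etl4* (0.18) and *Helb* (0.20), and *Dlx5* to *Eepd1* (0.17), *Fhod3* (0.19) and *2600006K01Rik* (0.20). *Dlx3* was closest to *Ifitm5* (0.27), *Phospho1* (0.36) and *I730028E13Rik* (0.36), against a root mean square of 2.17 for *Dlx3* itself. For *Dlx6* the closest was *Dlx6os2* (0.13), which overlaps it, before *Larp6* and *Pcdha12* (both 0.24).

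*Twist1* was closest to *Prrx2* (0.15), *Trim2* (0.17) and *Peg12* (0.17), *Msx2* to *Gm28818* (0.25), *Masp1* (0.25) and *Flnc* (0.26), and *Msx1* to *D430019H16Rik* (0.24), *Hs3st3b1* (0.34) and *Diras2* (0.35). Among the members themselves, *Sp7* and *Dlx5* were the closest at 0.25, *Runx2* and *Dlx5* followed at 0.26 and *Runx2* and *Sp7* at 0.29. The largest distance was 3.02, between *Dlx3* and *Msx2*. The points share library depth and the housekeeping scale.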

How the data were processed

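Raw counts per gene were deposited by the authors, 1 table for each of 24 libraries of polyadenylated RNA (Illumina TruSeq). Per the labels, the submitters' processing notes name cutadapt 2.5, STAR 2.73a, featureCounts 1.6.4 (Subread) and mm10. The strand setting and the rule for reads matching several genes are not given in the sources used here. Counts include PCR duplicates, so statements on depth cover counting error only. Totals were 17140202 to 25825762 in replicate 1 and 28159342 to 59734231 in replicates 2 to 4.

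RQ was computed as a gene's count over the geometric mean of the counts of *Sdha*, *Mrfap1*, *Actb* and *Actg1*. Counts were tested in edgeR 4.0.16 (R 4.3.3; glmQLFit, glmQLFTest, filterByExpr) in 1 fit of the 24 libraries with a mean for each of the 6 groups, the housekeeping mean replacing library size, and Benjamini-Hochberg adjustment over 20287 genes with a threshold of 0.05. The 5 comparisons were day 14 against 8, day 21 against 14, Het against WT at day 8 and at days 14 and 21, and the difference of these effects. The study's methods used tests of RQ at days 14 and 21 combined, for which exact permutation tests stand here. DESeq2 1.42.0, TMM, total counts, no filter, other housekeeping sets, each replicate and each library left out, and replicate as a block or covariate were alternatives. The interaction with replicate 1 was chosen after seeing the data.

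Same-numbered WT and Het libraries of a day deviated together in all 12 cases (correlation of deviations from group means, 0.199 to 0.788, median 0.378). The 36 combinations of unlike numbers lay between −0.613 and 0.439, with a median of −0.073, so the ranges overlapped. Deviations from a group mean sum to 0, so positive values for like numbers lower those for unlike numbers. Pairing among replicates 2 to 4 alone was not tested. Numbers were taken, as an assumption, to pair libraries where pairs are counted. The reported fit held no term for the replicate number, which entered only in the block and covariate alternatives. No 2 libraries agreed within sampling noise. On simulated data, 76% of genes changed 1.5-fold and 93% of genes changed 2-fold were recovered at days 14 and 21, and 50% and 82% at day 8, among 19818 genes tested. The simulated libraries were independent, without a shift shared by replicate number. The changed genes had a mean of at least 50 counts and changed on every day. These shares are therefore not the power of the tests in these data. The members and lists were chosen with earlier results of these data known. Named genes were the 8 members, up to 4 genes per list and comparison with the largest called log2 difference and a mean of at least 50 counts, the 3 genes most like each member, and genes overlapping a member. A coding sequence and some genes that this rule named are not reported here.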

Additional observations from a re-analysis of the deposited data

Results flagged for a closer look

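Within 48 groups of 4 libraries (8 members in 6 groups), 3 held a library far from the others by Dixon's criterion, where chance gives about 1 in 20 groups. *Dlx3* was at 110.5 RQ per 1000 in Het replicate 2 at day 14, against 78.9 to 80.0 in the other libraries. *Dlx6* was at 13.9 in WT replicate 1 at day 21, against 15.7 to 15.8. *Msx1* was at 12.8 in Het replicate 1 at day 21, against 36.95 to 37.1.

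The Het effect in replicate 1 was set against that in replicates 2 to 4 in an edgeR interaction test. The test was chosen because replicate 1 had been seen to stand apart, and replicate 1 has 1 library in each group, so the p-values restate that observation and are no independent support. Over all days, the effect in replicate 1 minus that in replicates 2 to 4 was 0.38 for *Sp7* (adjusted p = 0.0256), 0.61 for *Dlx3* (adjusted p = 0.0404), 0.54 for *Dlx5* (adjusted p = 0.0433) and −0.70 for *Msx1* (adjusted p = 0.0276). At days 14 and 21 alone it was 0.74 for *Dlx5* (adjusted p = 0.012), the only member called there, against 10.3% of all genes tested. Total counts were lower in replicate 1 in all groups, and the part of depth in this difference was not tested.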

How the results depend on the processing

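Of 1592 values of the members under alternative settings, 1474 kept their direction and side of the threshold, 46 lost and 40 gained a call and 32 changed sign. Members called at days 14 and 21 numbered 0 with TMM, total counts, the scale without *Mrfap1*, no filter, DESeq2, day 14 alone or day 21 alone, and 3 with the replicate block, replicate 1 as a covariate or the 16 libraries of these days. The replicate block and the covariate called 1 member each for the difference of Het effects and 2 and 1 for day 21 against 14. The replicate block changed no other call beyond those given above.

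Over all genes, the replicate block, the covariate and DESeq2 called 4990, 5356 and 4899 genes at days 14 and 21 (3098 as reported), 317, 393 and 520 at day 8 (130) and 66, 71 and 95 for the difference of effects (36). Day 14 alone gave 709 and day 21 alone 192. Day 14 against 8 gave 6272 in WT alone, and day 21 against 14 gave 1748 in WT alone and 972 in Het alone.

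Leaving out a replicate or library gave 88 to 8228 genes and 0 to 5 members at days 14 and 21, 0 to 3412 and 0 to 4 at day 8, 0 to 929 and 0 to 3 for the difference of effects, 6960 to 12344 and 5 to 8 for day 14 against 8, and 1328 to 6137 and 0 to 2 for day 21 against 14.

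Sign changes concerned values near 0. For day 21 against 14, *Dlx5* was −0.03 with TMM, total counts and DESeq2, −0.09 in Het alone and −0.09 to 0.09 with a library or replicate left out, and *Dlx3* was 0.02 without *Sdha*, 0.0 with the block and −0.08 to 0.1 with omissions. For the difference of effects, *Twist1* was −0.03 with TMM, −0.04 with DESeq2 and −0.11 to 0.13 with omissions, and *Msx1* −0.01 with DESeq2 and −0.23 to 0.35 with omissions. *Dlx6* at day 21 alone was −0.05. At day 8, omissions gave −0.02 to 0.35 for *Dlx5* and −0.01 to 0.24 for *Twist1*. The causes were not tested.

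The share of calls that were higher depended on the scale. It was 71.7% between days 8 and 14 on the housekeeping scale, 51.3% with TMM and 30.9% with total counts, with all-gene median log2 differences of 0.12, 0.0 and −0.15. It was 47.3%, 62.0% and 77.5% for Het against WT at days 14 and 21, 50.8%, 65.9% and 64.4% at day 8, and 67.3%, 51.1% and 50.4% for day 21 against 14. Cells were pooled before plating, so these data cannot give the spread between animals.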
